A study of Homo sapiens with 6 samples.

Results

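Of 19833 protein-coding genes, 39 carried a symbol made of KIF and a digit, and these kinesin genes were examined for their recovery with the RNA-binding protein CELF1 in melanoma cells. Symbols and exons came from the GENCODE annotation of the GRCh37 genome. By their known roles, 13 of the 39 were counted as mitotic kinesins, 13 as transport kinesins and 13 as neither. CELF1, also called CUGBP1, was immunoprecipitated with an antibody to CUGBP1 from lysates of SK-Mel-103 and UACC-62, which are established human melanoma lines. The cells were fixed with formaldehyde and had no other treatment named in the labels. RNA recovered with CELF1 (IP) was sequenced after removal of ribosomal RNA, beside RNA of the same lysates (input). IP was available as 1 sample of SK-Mel-103 (replicate 1) and 2 of UACC-62 (replicates 1 and 3), so that SK-Mel-103 gave 1 value per gene and UACC-62 gave 2. Where 3 values are given in a row below, they follow this order of samples. No sample with CELF1 depleted and none with an unrelated antibody was analysed here.

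Kinesins are motor proteins that use ATP to move along microtubules or to take them apart at their ends. Mitotic kinesins build the spindle, move chromosomes and organise the central spindle before cytokinesis, and their mRNAs are made mainly by dividing cells. Transport kinesins carry vesicles, mitochondria and other cargo, in pigment cells also melanosome cargo, and act at all stages of the cell cycle. CELF1 is known to bind GU-rich elements, chiefly in 3′ UTRs of mRNAs, and to regulate their decay and translation.

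The authors listed bins of 20 bp in which IP reads exceeded what the input predicted. Over the 3 samples, IP depth in these bins was 10958459, 11333805 and 14436573 reads, and input depth 8453517, 10161917 and 8900292. Melanocyte lineage markers had input reads for 3 of 8 genes in SK-Mel-103 and for 6 of 8 in both UACC-62 replicates. Their summed input, as reads per 1000000, was 106 in SK-Mel-103 against 1547 and 1346 in UACC-62, and the pigment genes PMEL and TYRP1 were listed in no sample. Of the markers of other cell types that were matched, PTPRC had 3 input reads in UACC-62 replicate 1, and no other had any. The part of this difference between the lines in the results below was not tested.

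Kinesin genes with a peak, meaning an exonic bin of over 30 IP reads whose p-value was under 0.05, numbered 8, 8 and 12 of 39 in the 3 samples. These were 20.5%, 20.5% and 30.8% of the kinesin genes, beside 15.1%, 12.5% and 17.0% of all protein-coding genes. Mitotic kinesins contributed 4, 2 and 5 of them and transport kinesins 4, 6 and 7, whereas none of the other 13 had a peak in any sample. A peak in the same bin of all 3 samples was found in 5 kinesin genes, or 12.8%, beside 8.71% of all protein-coding genes. They were the transport kinesins KIF5B, KIF13A and KIF1C and the mitotic kinesins KIF2C and KIF18B. These shares include genes with no listed exonic bin in any sample, 8 of 39 kinesin genes and 6694 of 19833 protein-coding genes. Among genes with at least 20 IP reads in every sample, a common peak was found in 5 of 22 kinesin genes and 1728 of 7941 protein-coding genes. Of the 106 common bins, 101 lay in transport and 5 in mitotic kinesins, and KIF5B alone held 92. No listed exonic bin of any kinesin gene fell in an exon of another protein-coding gene on its strand.

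At the other end, 8 kinesin genes had no listed exonic bin in any sample, namely KIF2B, KIF1A, KIF17, KIF6, KIF12, KIF19, KIF25 and KIF26A. Because only bins that passed are listed, this does not show that their mRNAs were missing from the cells. Another 6 genes, KIF5A, KIF7, KIF9, KIF21B, KIF26B and KIF27, had listed bins in some samples but not in others. At least 20 IP reads in every sample were reached by 22 genes, of which 10 were mitotic, 10 transport and 2 neither. The mitotic KIF15 and KIF4B and KIF24 of neither group had bins in every sample but fewer reads. KIF4B is a close copy of KIF4A. Of the 40-nt stretches in the KIF4A exons 20.9% also occur in KIF4B, so that the reads of both are uncertain, and KIF4B had 36, 9 and 5 IP reads.

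Recovery was expressed per gene as log2 of IP over input, that is, the summed reads of its listed exonic bins plus 1, as a share of all reads in the column, for IP against input. Genes could enter only through listed bins, none of which held fewer than 4 IP reads in any sample. The median over all 7941 genes with at least 20 IP reads in every sample was below 0, at -0.21, -0.63 and -0.41, and values are therefore read against these medians and not against 0.

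The 10 transport kinesins had median log2 values of 0.44, 0.17 and 0.27, and the 10 mitotic kinesins -0.80, -0.83 and -0.90. Transport kinesins were thus 1.237, 1.002 and 1.168 higher in the median, while this difference changed by 0.17 between the UACC-62 replicates. All 3 samples placed the transport median above the median of all genes and the mitotic median below it. In all 3 samples 8 of 10 transport and 2 of 10 mitotic kinesins lay above the median of all genes, as did 39.9% of all genes. Conversely, 6 of 10 mitotic and none of 10 transport kinesins lay below it in all 3, again beside 39.9% of all genes. The groups overlapped, because KIF18B and KIF2C, both mitotic, lay among the transport kinesins. In UACC-62 replicate 1 the transport KIF13B, at -0.73, also lay below the mitotic KIF20B, KIF14 and KIF18A, at -0.33, -0.60 and -0.71. The transport KIF16B and KIF3B lay below KIF20B in that sample, at -0.58 and -0.45. Genes of a group are not replicates of a condition, and no test was made over them.

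**Figure D1:**
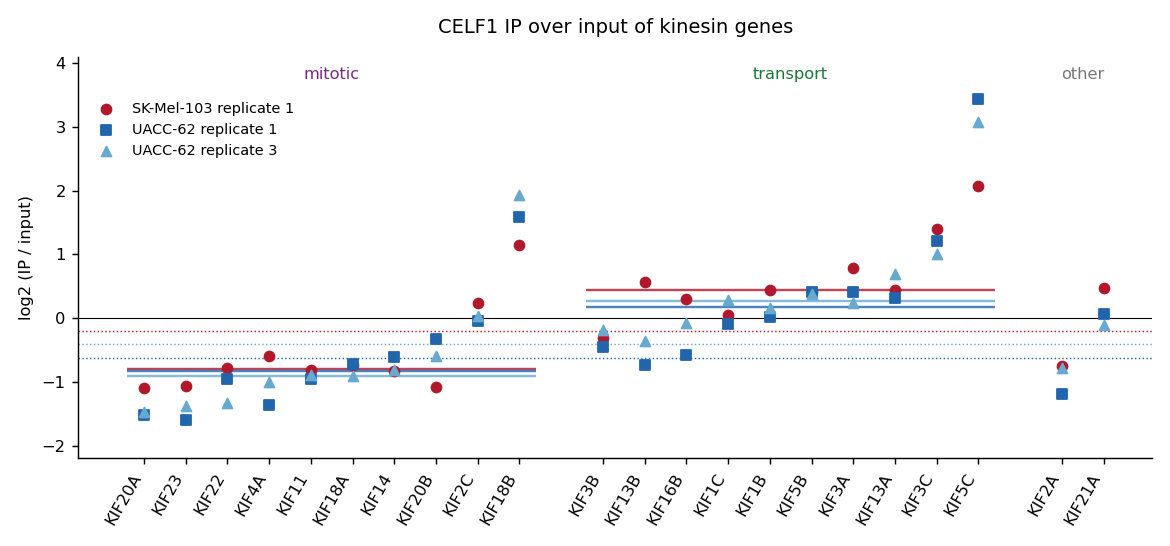
Log2 of IP over input (y axis) for the 22 kinesin genes with at least 20 IP reads in every sample, grouped as mitotic, transport or other, with 1 point per sample. Solid lines mark group medians and dotted lines the medians of all genes in the colour of the sample; the transport medians of 0.17 to 0.44 lie above the mitotic medians of -0.90 to -0.80, and KIF18B and KIF5C stand highest in their groups.

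Among transport kinesins, the heavy chains of kinesin-1 included the gene with the most reads and the gene with the highest log2 value. KIF5B (chr10:32297943-32345353, minus strand), the heavy chain used by most cells, had 10918, 9387 and 11560 IP reads and 6318, 6355 and 5479 input reads. Its log2 value stood at 0.41 in SK-Mel-103 and 0.392 ± 0.018 (SD, n = 2) in UACC-62. SK-Mel-103 was thus 0.022 above the UACC-62 mean and above both replicates. KIF3C, KIF13A and KIF3A had higher means over the 3 samples than KIF5B. KIF5B had 115, 101 and 132 peaks in the 3 samples. The 92 common bins formed 36 runs of adjacent bins, with 82 bins in the 3′ UTR and 10 in the coding region, and IP exceeded input in all 3 samples in 70 of the 92. In the 3′ UTR the log2 value was 0.97, 1.01 and 0.88, against -0.70, -0.85 and -0.54 in the coding region. KIF5B supplied 35.5%, 41.8% and 37.4% of all IP reads of the kinesin genes, and sums over the family are therefore weighted towards it.

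KIF5C (chr2:149632819-149883273, plus strand), a kinesin-1 heavy chain best known from neurons, had the highest value of all 22 genes. There were 4862 IP reads in SK-Mel-103 but 627 and 613 in the UACC-62 replicates, with 892, 51 and 44 input reads. The log2 value was 2.07 in SK-Mel-103, with an exact 95% interval for counting error of 1.97 to 2.18, and 3.25 ± 0.26 (SD, n = 2) in UACC-62. SK-Mel-103 thus had more reads of KIF5C in both columns and the lower ratio. In the UACC-62 replicates 39 of 72 and 42 of 75 KIF5C bins had no input read, against 23 of 210 in SK-Mel-103. With bins that held input only, the mean over the 3 samples was 2.03 instead of 2.86. How far the floor of 4 IP reads per listed bin raised the UACC-62 ratios was not tested. All 51 peaks of KIF5C lay in SK-Mel-103, since no bin exceeded 27 and 23 reads in the UACC-62 replicates, and KIF5C had no common bin. The third heavy chain, KIF5A, was listed in SK-Mel-103 only, with 39 IP and 13 input reads.

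KIF13A (chr6:17759414-17987866, minus strand), which carries cargo between endosomes and melanosomes, had 2251, 2509 and 3142 IP reads and log2 values of 0.44, 0.32 and 0.70. Its 8 common bins lay in the 3′ UTR. Of its annotated 3′ UTR stretches, the distal one of 1677 nt at chr6:17759414-17761090 held the most IP reads, with 1195, 1331 and 1493, and 372, 513 and 351 input reads. The stretch of 420 nt at chr6:17763924-17764343, the 3′ UTR of the canonical transcript, held 4, 12 and 20 IP reads. In both columns the distal stretch thus held more reads than the 3′ UTR of the canonical transcript.

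KIF1B (chr1:10270628-10441661, plus strand), a carrier of mitochondria and of precursors of synaptic vesicles, had 837, 1692 and 3137 IP reads and log2 values of 0.44, 0.02 and 0.16. Its peaks numbered 0, 6 and 13, none of them common to all samples. The proximal 3′ UTR of 3953 nt, which belongs to the short isoform ENST00000377093, held 457, 1350 and 2221 IP reads. The distal one of 5019 nt held 221, 113 and 317. Per 1000000 reads of the column, proximal input was 32.1, 104 and 126, and distal input 9.11, 6.20 and 12.4. Within UACC-62 the log2 value was 0.25 ± 0.06 in the proximal and 0.75 ± 0.10 in the distal stretch (SD, n = 2), and SK-Mel-103 had 0.38 and 1.13. The difference was larger than the spread between replicates, but that spread does not cover the selection of bins with at least 4 IP reads. Distal input was 77, 63 and 110 reads, against 271, 1052 and 1119 in the proximal stretch. The part of this selection in the difference was not tested.

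**Figure D2:**
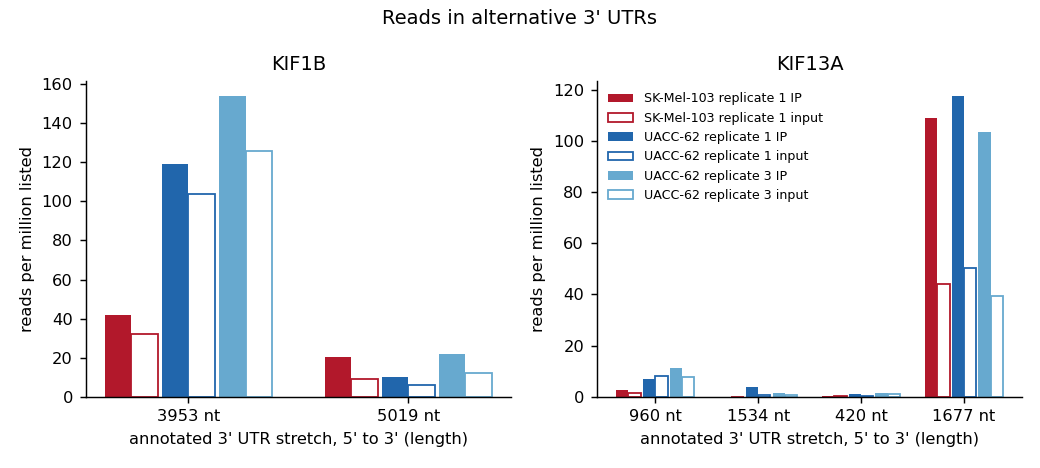
Reads per 1000000 reads in listed bins (y axis) in the annotated 3′ UTR stretches of KIF1B and KIF13A with any IP read (x axis, by length), with filled bars for IP and open bars for input of each sample. Of the 3′ UTR reads shown, most of KIF1B lie in the proximal stretch of 3953 nt and most of KIF13A in the distal stretch of 1677 nt, in IP and in input.

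KIF1C (chr17:4901245-4931696, plus strand), of the same kinesin-3 family, had 1059, 2274 and 2257 IP reads with log2 values of 0.04, -0.10 and 0.29. It had 1 common bin, 507 nt after the end of the coding region. The kinesin-2 motors, which drive transport in cilia and other compartments, did not stand together. KIF3C had log2 values of 1.397, 1.207 and 0.998, KIF3A 0.79, 0.40 and 0.24, and KIF3B -0.32, -0.45 and -0.18. KIF3A and KIF3B form a heterodimer, and in UACC-62 they stood at 0.32 ± 0.11 and -0.32 ± 0.19 (SD, n = 2). KIF13B and KIF16B, which act on vesicles and endosomes, had few reads, from 26 to 152 IP reads in a sample, with log2 values of 0.56, -0.73 and -0.36 and of 0.29, -0.58 and -0.07.

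KIF18B and KIF2C were the mitotic kinesins recovered most. KIF18B (chr17:43002077-43025141, minus strand), which shortens the plus ends of astral microtubules, had 708, 559 and 442 IP reads and 246, 167 and 71 input reads. Its log2 value was 1.15 in SK-Mel-103, with a counting interval of 0.94 to 1.37, and 1.75 ± 0.24 (SD, n = 2) in UACC-62. The 3′ UTR held 77.7%, 88.7% and 96.4% of its IP reads, and its only common bin lay at the 3′ end of the mRNA. KIF2C (chr1:45205490-45233439, plus strand), known as MCAK, depolymerises microtubules at kinetochores. It had 857, 709 and 1468 IP reads and log2 values of 0.24, -0.05 and 0.04. Its 3′ UTR had log2 values of 1.02, 0.60 and 0.90, against -0.47, -1.08 and -0.63 in the coding region, and all 4 common bins lay in the 3′ UTR.

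KIF20A and KIF23 had the lowest means over the 3 samples. KIF20A (chr5:137514408-137523412, plus strand), which brings the chromosomal passenger complex to the central spindle, had 609, 265 and 497 IP reads but 1005, 682 and 852 input reads. Its log2 value was -1.10 in SK-Mel-103 and -1.50 ± 0.03 (SD, n = 2) in UACC-62. KIF23 (chr15:69706585-69740766, plus strand), the motor of the centralspindlin complex, had 741, 294 and 526 IP reads and log2 values of -1.06, -1.60 and -1.38. KIF4A (chrX:69509954-69640736, plus strand), a motor of chromosomes and the central spindle, had log2 values of -0.591, -1.359 and -0.999, and in SK-Mel-103 it stood above KIF11.

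KIF11 (chr10:94333862-94415152, plus strand), known as Eg5, pushes the spindle poles apart. It had 1476, 294 and 624 IP reads, 2011, 511 and 715 input reads and log2 values of -0.82, -0.95 and -0.89. SK-Mel-103 was 0.10 above the UACC-62 mean, with an SD of 0.04 between the UACC-62 replicates. SK-Mel-103 had 2 peaks in KIF11 and UACC-62 none, as its highest bin held 73 reads against 20 and 18. KIF15, a motor that can act beside KIF11, had 379, 17 and 39 IP reads and was left out of the medians. The remaining mitotic kinesins, KIF14, KIF18A, KIF20B and KIF22, had values from -1.34 to -0.33.

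Of kinesins in neither group, KIF2A, a depolymerase of neurons and spindle poles, had log2 values of -0.75, -1.19 and -0.79. KIF21A, which limits microtubule growth at the cell cortex, had 0.47, 0.06 and -0.12. Neither had a peak in any sample.

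The 3′ UTR of the kinesin genes held 66.3%, 71.2% and 65.8% of their IP reads, against 40.9%, 48.0% and 47.3% of their input reads, and makes up 36.3% of their exon length. Over all protein-coding genes it held more, with 73.2%, 78.8% and 76.8% of IP reads and 54.9%, 54.8% and 56.6% of input reads, and made up 48.5% of exon length. By group, the 3′ UTR held 36.8%, 56.8% and 44.9% of the IP reads of mitotic and 76.7%, 73.8% and 70.3% of those of transport kinesins. Among genes with at least 20 IP reads in both regions of every sample, the 3′ UTR was higher than the coding region in all 3 samples in 6 of 7 mitotic, 6 of 7 transport and 1 of 2 other kinesins. The same held for 56.3% of the 4817 genes measured in this way. In the median the 3′ UTR exceeded the coding region by 0.72, 0.98 and 0.41 on the log2 scale in mitotic kinesins, by 0.65, 1.32 and 0.98 in transport kinesins, and by 0.41, 0.39 and 0.33 in all genes. KIF20A and KIF3B were the members of the 2 groups for which the order of the regions was not the same in all samples.

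The distance between the groups differed between regions, but so did the genes used and the minimum of reads. Within the 3′ UTR alone the transport median exceeded the mitotic one by 1.39, 1.44 and 1.30, with 9 transport and 10 mitotic kinesins. No minimum was set for reads within the 3′ UTR, where KIF22 had 5, 10 and 8 IP reads and KIF13B 12, 29 and 22. In coding-region bins alone the difference was 0.79, 0.33 and 0.58, a comparison chosen after the values were seen. It used 8 transport and 10 mitotic kinesins with at least 20 IP reads in coding-region bins of every sample. The difference kept its direction in all 3 samples. The 3′ UTRs of the mitotic kinesins made up 19.0% of their exon length and those of the transport kinesins 44.5%.

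**Figure D3:**
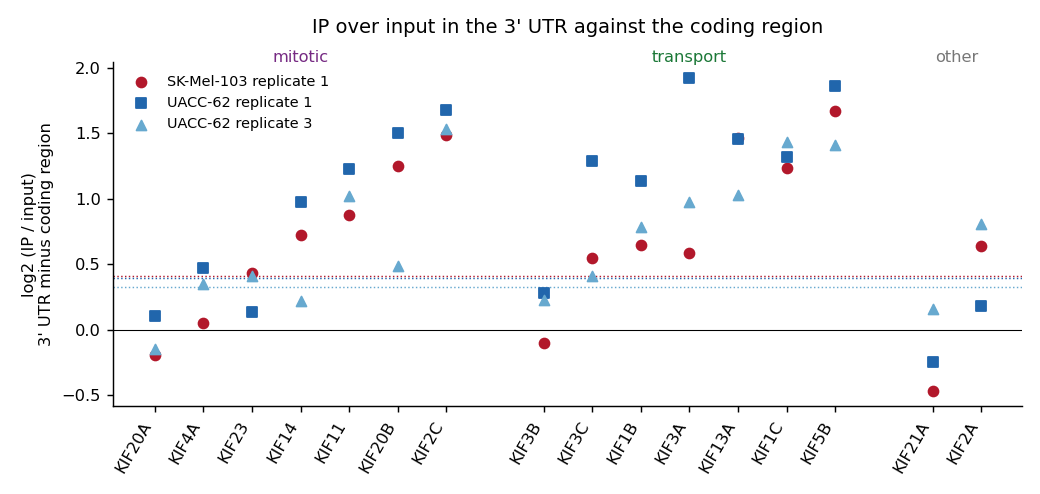
Difference in log2 IP over input between the 3′ UTR and the coding region (y axis) for the 16 kinesin genes with at least 20 IP reads in both regions of every sample, with 1 point per sample. Dotted lines give the medians over 4817 genes; KIF5B, KIF2C, KIF1C and KIF13A lie above 1.0 in every sample, while KIF20A, KIF3B and KIF21A fall on both sides of 0.

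Along the 3′ UTR the reads were unevenly spread. When the 3′ UTR of KIF5B was divided into 4 equal parts from the stop codon on, their log2 values were 1.08, 0.58, 0.44 and 1.57 in SK-Mel-103 and 1.35, 0.78, 0.52 and 1.23 in replicate 1 of UACC-62. Replicate 3 gave 0.83, 0.82, 0.70 and 1.09. The last part was thus above the third in all 3 samples. In KIF2C the first part had -0.22, -0.19 and 0.30 and the last 1.74, 1.41 and 1.75 in the 3 samples. KIF5C had its most IP reads in the second part in SK-Mel-103 and UACC-62 replicate 1, with 1816 and 320, and in the third in UACC-62 replicate 3, with 201 against 174 in the second.

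**Figure D4:**
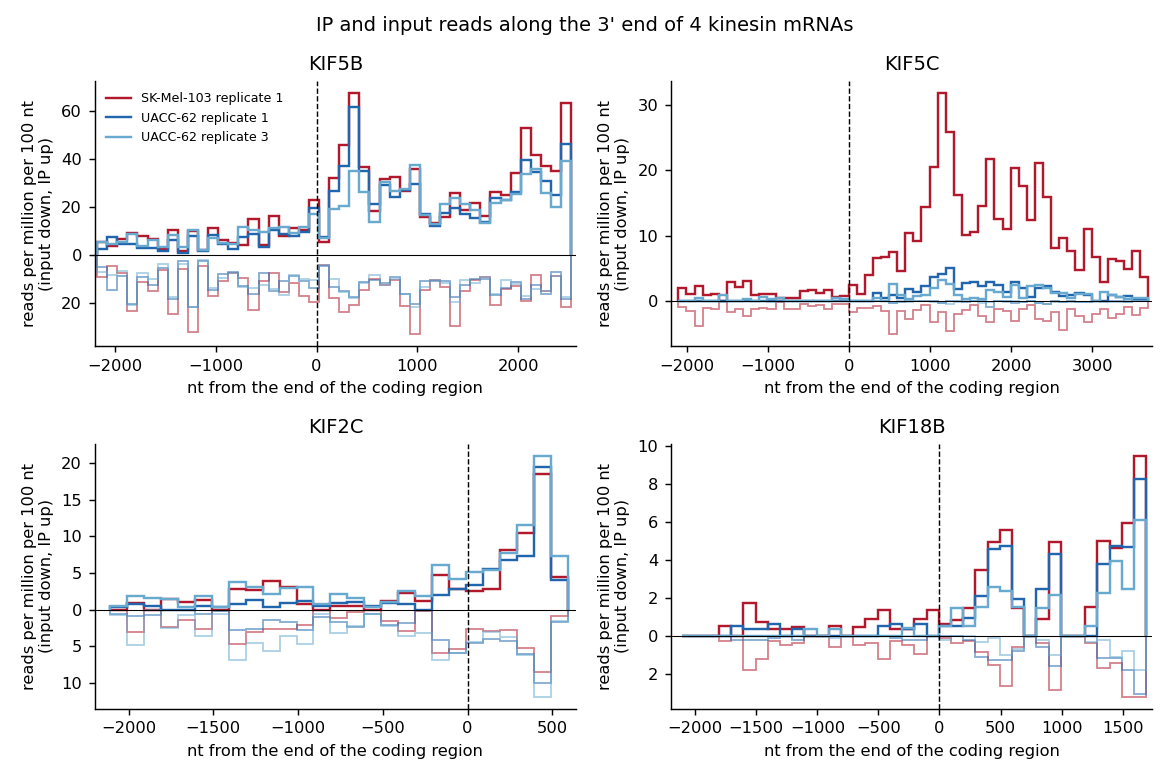
Reads per 1000000 reads in listed bins, summed in steps of 100 nt (y axis, IP upwards and input downwards), along the 3′ end of KIF5B, KIF5C, KIF2C and KIF18B, against the distance in nt from the end of the coding region (x axis, dashed line at the start of the 3′ UTR). IP of KIF5B and KIF2C stands higher after the coding region than within it while input does not step up in the same way, and KIF5C is high in SK-Mel-103 alone.

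The strongest common bin of each of the 5 genes is printed because these are the stretches where all 3 samples had a peak. Each is given on the transcript strand in DNA letters of GRCh37, with TGT, the core of known CELF1 elements, in capitals.
KIF5B, chr10:32297941-32297960: gaggaaaattttttgaaatg
KIF2C, chr1:45233281-45233300: aaTGTctTGTactttaaaaa
KIF13A, chr6:17759561-17759580: atttatatcccctttgaact
KIF1C, chr17:4927941-4927960: ggtttggctggagtcccatg
KIF18B, chr17:43002081-43002100: acaataaaccgtctccatcc

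All 5 lay in the 3′ UTR, and their centres were 8, 148, 157, 3745 and 14 nt from the end of the mRNA for KIF5B, KIF2C, KIF13A, KIF1C and KIF18B. The KIF5B bin held 334, 232 and 308 IP reads against 82, 61 and 59 input reads, a log2 value of 1.64, 1.75 and 1.67. In KIF2C there were 107, 100 and 190 IP reads against 29, 52 and 55 of input. KIF13A had 92, 76 and 121 against 18, 30 and 21, KIF1C 52, 122 and 110 against 21, 62 and 39, and KIF18B 62, 61 and 40 against 17, 23 and 11. IP exceeded input at each of the 5 in every sample, but the bins were chosen as common peaks by their IP reads, so this is no separate result. Only the KIF2C bin holds TGT, at 2 positions. Over all common bins of the kinesin genes TGT occurred in 36 of 106, or 34.0%, and over the 30842 common bins of the whole series in 38.0%. The 40 nt around each printed bin occur once in the genome.

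GU-rich elements were searched in annotated 3′ UTRs as 11-nt stretches with at most 2 mismatches to TGTTTGTTTGT or TGTGTGTGTGT on the transcript strand, overlapping matches being counted once. Of the kinesin genes, 11 of 13 transport, 4 of 13 mitotic and 8 of 13 other genes held at least 1, beside 55.3% of all genes with a 3′ UTR. Transport kinesins also have the longer 3′ UTRs, with a median of 3695 nt against 623 nt. Per kb of 3′ UTR there were 1.201 elements in transport, 0.559 in mitotic and 0.444 in other kinesins, beside 0.778 over all genes. Counts were highest in KIF1B and KIF13A with 9 each, KIF1C and KIF3A with 7 and KIF5C with 6. Among the mitotic kinesins, KIF18B had the highest mean log2 value and held 3, and KIF20A had the lowest and held 1. KIF11 and KIF20B also held 1 each, and KIF2C and KIF23 were among those with none. Per kb the order of KIF18B and KIF20A was the reverse, with 1.771 elements in KIF18B and 3.195 in KIF20A, whose 3′ UTR has 313 nt.

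The best matches are shown for 5 genes that differ in recovery, with the 11 nt of the element in capitals. They are exact in KIF5C and KIF13A, have 1 mismatch in KIF3C and KIF11, and 2 in KIF5B.
KIF5C, chr2:149881022-149881050: tagctcaagTGTGTGTGTGTgtgtgtgtg
KIF13A, chr6:17759508-17759536: ttctgtgtgTGTGTGTGTGTatgtgtttt
KIF3C, chr2:26149884-26149912: gtgcgtgttTGTGTGCGTGTttacctcca
KIF11, chr10:94414734-94414762: ttttgttgtTGCTTGTTTGTatataatac
KIF5B, chr10:32298054-32298082: tgtggaataTGTTGGTTTATtttcagtgc

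In bins overlapping the KIF5C element there were 28, 4 and 4 IP reads against 0, 1 and 0 input reads. The KIF13A element had 18, 35 and 45 against 8, 11 and 10, and the KIF3C element 18, 20 and 25 against 1, 4 and 5. At the KIF11 element 9 IP and 6 input reads were listed in SK-Mel-103 and no bin in UACC-62. KIF5B had 53, 51 and 45 against 12, 15 and 14. In none of these 5 genes did the printed element lie in the bin with the most IP reads in its lowest sample. Elements did lie within 100 nt of some strongest common bins. They numbered 2 in KIF13A, 2 in KIF1C and 1 in KIF18B, against 0 in KIF5B and in KIF2C. Bins within 50 nt of any element were then set against the other 3′ UTR bins of the same gene. In 5 of 11 kinesin genes with enough reads, KIF5B, KIF1C, KIF3C, KIF3B and KIF13A, the value near elements was higher in all 3 samples, which is near the 42.3% of all genes. The largest difference was in KIF3C, with 1.87, 0.71 and 1.91 on the log2 scale. In KIF18B and KIF2A, 2 of the 11, the value near elements was lower in all 3 samples. Of all 2471 genes with enough reads, 339 were lower and 1044 higher in all 3.

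Input reads served as a measure of the mRNA itself, limited to the bins listed for each sample. Counted per kb of exon and per 1000000, the median of the mitotic kinesins was 20.5 in SK-Mel-103 against 7.18 and 12.6 in UACC-62, and that of the transport kinesins 7.52 against 9.07 and 10.4. Input of 8 of 10 mitotic kinesins was higher in SK-Mel-103 than in both UACC-62 replicates, as was that of 3 of 10 transport kinesins and of 45.1% of all genes. Median folds of SK-Mel-103 over the UACC-62 mean were 2.65 and 0.555 for the 2 groups, beside 1.03 over all genes. KIF20B, which acts in cytokinesis, had 182 input reads per 1000000 in SK-Mel-103 and 14.8 ± 6.43 (SD, n = 2) in UACC-62, a fold of 12.3. For KIF11 these were 238 and 65.3 ± 21.2, a fold of 3.64. Among transport kinesins KIF5C ran against its group, with 106 against 4.98 ± 0.05 and a fold of 21.2, whereas KIF3A, with 12.3 against 62.8 ± 0.35, was 5.11-fold higher in UACC-62. Listed bins numbered 126 in SK-Mel-103 against 18 and 33 in UACC-62 for KIF20B, and 137 against 49 and 85 for KIF11. For KIF5C they numbered 210 against 72 and 75, and for KIF3A 34 against 104 and 109. The part of these bin numbers in the folds was not tested. In bulk RNA of this kind, fewer cells in division and less RNA per cell cannot be told apart.

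**Figure D5:**
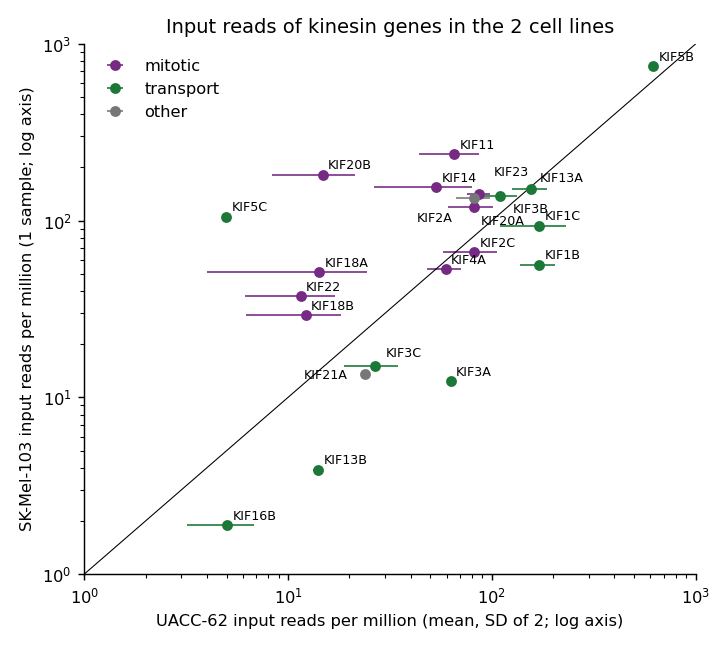
Input reads per 1000000 reads in listed bins of SK-Mel-103 (y axis, 1 sample) against UACC-62 (x axis, mean and SD of 2 replicates, both axes logarithmic) for 22 kinesin genes. Points above the diagonal had more input in SK-Mel-103; KIF5C and KIF20B lie farthest above it and KIF3A, KIF13B and KIF1B below it.

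Recovery with CELF1 did not divide by cell line in the same manner. Log2 IP over input was higher in SK-Mel-103 than in both UACC-62 replicates in 6 of 10 mitotic and 6 of 10 transport kinesins, near the 58.9% of all genes. KIF18B, KIF5C, KIF20B and KIF14 were lower in SK-Mel-103 than in both replicates of UACC-62, and all 4 had more input in SK-Mel-103. KIF14 was close, at -0.83 against -0.60 and -0.81. KIF20B had 92 IP reads in 18 bins in UACC-62 replicate 1, against 942 in 126 bins in SK-Mel-103. How far the floor of 4 IP reads per listed bin raised ratios of scarce mRNAs was not tested. The median SD between UACC-62 replicates was 0.15 in mitotic and 0.22 in transport kinesins, beside 0.21 in all genes.

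Of the listed bins of kinesin genes, 4.760%, 5.733% and 11.996% had no input read, with Wilson 95% intervals of 3.94% to 5.73%, 4.72% to 6.94% and 10.7% to 13.4%. The shares over all protein-coding genes were 4.76%, 5.22% and 11.7%, within these intervals. Intervals cover counting error only.

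Partners of the motors were read in the same way from a list of 12 genes of the spindle and 13 of transport. Partners of the spindle had median log2 values of -1.09, -1.33 and -1.38, and partners of transport -0.39, -0.53 and -0.45, beside -0.21, -0.63 and -0.41 over all genes. Common peaks occurred in 3 of 12 and 2 of 13, beside 8.71% of all protein-coding genes. Unlike for the kinesin genes, overlap of the partners' bins with exons of other genes was not checked. INCENP, the scaffold of the chromosomal passenger complex that KIF20A moves, had 3605, 4282 and 4722 IP reads against 869, 577 and 416 of input, 36 common bins and log2 values of 1.68, 2.73 and 2.80. AURKB, the kinase of that complex, had 2 common bins and log2 values of -0.08, -0.01 and 0.60. RACGAP1, which pairs with KIF23, had 1 common bin and -1.21, -1.98 and -1.67. KIFAP3, the adaptor of KIF3A and KIF3B, had 1 and log2 values of 2.02, 0.88 and 0.68, and the dynein heavy chain DYNC1H1 had 1 and -1.07, -1.55 and -1.70. Motors and partners thus did not go together in every case, since KIF20A lay far below INCENP in all 3 samples and KIF3B below KIFAP3. These partners were named for their common peaks. Of the 12 partners of the spindle, 9 lay below the median of all genes in all 3 samples and 3 above it. Of 9 partners of transport with at least 20 IP reads in every sample, 4 lay below and 2 above. Among all genes, 39.9% lay below and 39.9% above.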

How the data were processed

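CELF1 RIP-Seq was analysed in 3 IP samples of 2 melanoma lines, grouped by their labels, each with its own input. The 3 input samples entered as a column of the IP lists. The authors used TopHat (genome GRCh37, first-strand library type) and called peaks by Piranha in 20-bp bins, with input as covariate. The deposited counts are whole IP reads per bin, not normalized, in passing bins only. The p-value per bin was deposited as Piranha gave it, and whether it is corrected is not given in the sources used here. The last deposited column is a ratio that scales input reads to a fixed number, with 0.01 for none. Whole input reads were recovered as multiples of its smallest step, and all covariates came out whole within 0.05 of a read.

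The transcript strand was taken as the reverse of the listed strand. Bins were placed by their centre in exons of protein-coding genes (GENCODE version 44, mapped to GRCh37), with 3′ UTR before coding region before 5′ UTR. Reads per gene were divided by the totals of the listed bins, with a pseudocount of 1 read, and group medians used genes with at least 20 IP reads in every sample. No test was run. SK-Mel-103 had 1 sample, and a count test between IP and input would depend on the selection of bins. UACC-62 replicates, which the series calls biological, are given as mean and SD.

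The members, lists and groups were chosen with earlier results of these data known. Genes named by rule were KIF11, KIF23, KIF1B and KIF5B, genes with a common peak, and the 3 highest and 3 lowest members with at least 50 IP reads in every sample. Other members were named after their values were seen, as were the genes whose elements are printed. Partner genes named are those with a common peak. Markers were 8 melanocyte genes and 8 of other cell types, of which PECAM1 was not matched. Alternatives covered the read and p-value filters, strand, bin placement, the pseudocount, scaling, regions, minimum reads, group membership and leaving out each UACC-62 replicate. On simulated data, input reads of all 50030 bins, all 1000 placements and all 200 planted elements were recovered. Tools were pysam 0.24.0, samtools 1.23.1, matplotlib 3.10.9, scipy 1.17.1, numpy 2.4.6 and pandas 2.3.3 in Python 3.11.15.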

Additional observations from a re-analysis of the deposited data

Results flagged for a closer look

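In KIF13B and KIF16B, both transport kinesins, log2 IP over input was above 0 in SK-Mel-103 and below 0 in both UACC-62 replicates. Read against the median of all genes, which was -0.21 in SK-Mel-103 and -0.63 and -0.41 in UACC-62, KIF16B lay above it in all 3 samples and KIF13B below it only in UACC-62 replicate 1. KIF13B stood at 0.56 in SK-Mel-103 and at -0.54 ± 0.26 (SD, n = 2) in UACC-62, a difference of 1.10. KIF16B stood at 0.29 and -0.33 ± 0.36, a difference of 0.62. With 1 sample of SK-Mel-103 the difference was not tested, and both genes had at most 152 IP reads in any sample.

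Opposite to the 3′ UTR of KIF21B, a bin at chr1:200940541-200940560 held 116 IP reads in the SK-Mel-103 sample and 114 in replicate 3 of UACC-62, with no input read in either, and was not listed in UACC-62 replicate 1. KIF21B itself had 4 IP reads, in UACC-62 replicate 3. Bins in introns of kinesin genes, which the comparisons did not use, had log2 values of 1.61 in SK-Mel-103 (2416 IP reads in 438 bins), 2.45 in UACC-62 replicate 1 (2010 reads in 385 bins) and 4.04 in UACC-62 replicate 3 (1785 reads in 378 bins). No intronic bin exceeded 17 IP reads, and no listed bin held fewer than 4, so these ratios rest on bins of few reads. Summed input of the intronic bins was 609, 330 and 66 reads in the 3 samples. The part of the floor of 4 reads in these values was not tested.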

How the results depend on the processing

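The number of kinesin genes with a common peak was 5, and became 21 with every listed bin (40.01% of all genes), 1 (KIF5B) with more than 100 IP reads (2.68%) and 0 with the listed strand read literally (0.484%). It stayed at 5 at a p-value under 0.01, with any overlap of bin and exon and with a peak anywhere in the gene. Averaged over samples, the median of all 22 genes moved from -0.13 to 0.28 without division by totals, to 0.28 when centred on all genes and to 0.11 in 3′ UTR bins. The transport minus mitotic median of 1.14 became 1.38 in 3′ UTR bins, 1.27 with at least 100 IP reads and 0.57 in coding-region bins (added after seeing the data), and it kept its direction under every alternative run. Genes tested differed in these last 3 settings, and no minimum of reads within the 3′ UTR was set for the first of them. Counting peaks only, 89.8% instead of 67.8% of IP reads lay in the 3′ UTR. Leaving out either UACC-62 replicate gave 5 to 6 genes with a common peak, -0.12 to -0.0040 for the median of all 22 genes, 1.120 to 1.202 for the difference, 66.1% to 68.7% in the 3′ UTR, 5.25% to 8.38% of bins without input, 8 to 10 mitotic and 3 to 4 transport kinesins with more input in SK-Mel-103, and 6 to 7 partner genes with a common peak. Of 84 values for the 12 genes named by rule under 7 alternatives, 38 moved by more than the replicate SD. The sign changed in 2, both of KIF1C, from 0.08 to -0.05 with bins with input only and to -0.03 without UACC-62 replicate 3. No paired analysis was possible because the lines share only replicate number 1 and no test was run. Only listed bins are known, so input outside them, weakly recovered mRNAs and the spread of SK-Mel-103 could not be measured.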
